A study of Mus musculus with 12 samples.

Results

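The genes described here encode 9 proteins that break down or carry fatty acids in peroxisomes: Ehhadh, Hsd17b4, Acaa1a, Acaa1b, Ech1, Eci2, Abcd2, Abcd3 and Crat. Probes were taken as theirs where the accession printed with the probe on the array maps to one of these symbols. That gave 14 probes for the 9 genes, out of 41174 probes and 16535 named genes on the array. Acaa1a and Abcd3 had 3 probes each and Abcd2 had 2, while the other members had 1. All 14 probes passed the filter on dim spots, and all 14 were well above background on all 12 arrays.

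The study measured whole-liver RNA of C57BL/6 mice that carry MycF/F alleles, which the usual notation reads as Myc genes flanked by loxP sites. The groups were MycF/F,ERT2-Cre mice on a diet with 0.1% Wy-14643 (n = 4), MycF/F,ERT2-Cre mice on control diet (n = 4), MycF/F mice on 0.1% Wy-14643 (n = 3) and MycF/F mice on control diet (n = 1), with diets given for 2 days. The genotype labels call MycF/F,ERT2-Cre mice "ko" and MycF/F mice "wt", and all groups share the floxed alleles. ERT2-Cre is a recombinase that tamoxifen activates. The sources used here do not give the promoter that drives it, any tamoxifen treatment, sex or age. The RNA of the lone MycF/F control array is labelled as pooled liver. Whether each array holds a different mouse is not stated, so the spread behind the p-values could be technical. Every array compared sample RNA in Cy5 with a pooled liver reference in Cy3. A value is therefore a log2 ratio to that reference: 0 means the same brightness as the reference, and a difference of 1 means a doubling.

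Peroxisomes shorten very long-chain, branched and dicarboxylic fatty acids that mitochondria handle poorly. ABC half-transporters bring the acyl-CoA esters in, a first oxidation introduces a double bond, a bifunctional enzyme hydrates and dehydrogenates the product, and a thiolase splits off acetyl-CoA. Isomerases prepare unsaturated chains, and carnitine acyltransferases help the shortened products to leave. Wy-14643 is an agonist of PPARα, a nuclear receptor known in rodent liver for switching on genes of this pathway and enlarging the peroxisome population. PPARα binds DNA as a dimer with RXR at direct repeats of the hexamer AGGTCA with a single base between them.

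The sequences at the start sites of Ehhadh, Acaa1a and Acaa1b are shown because these members had the largest log ratio changes by the probe that stands for each gene in MycF/F,ERT2-Cre livers. Crat exceeded Acaa1b on the Cy5 signal alone (2.29 against 2.03) and exceeded Acaa1a where the Acaa1a probes were averaged (2.52 against 2.44). Acaa1a and Acaa1b are paralogues on the same chromosome. The windows are from RefSeq on GRCm38.p6 and hold 250 bases before and 50 bases from the annotated start site, written 5′ to 3′ on the gene's strand. Ehhadh lies at chr16:21787785-21788084 on the minus strand, Acaa1a at chr9:119341044-119341343 on the plus strand and Acaa1b at chr9:119157044-119157343 on the minus strand. The Acaa1a gene is annotated from 119341028 to 119350296, so its whole window lies within the gene. Its start site is thus not the gene's outermost one, unlike those of Ehhadh and Acaa1b. Capitals mark the stretch nearest to AGGTCA, any base, AGGTCA on either strand.
Ehhadh: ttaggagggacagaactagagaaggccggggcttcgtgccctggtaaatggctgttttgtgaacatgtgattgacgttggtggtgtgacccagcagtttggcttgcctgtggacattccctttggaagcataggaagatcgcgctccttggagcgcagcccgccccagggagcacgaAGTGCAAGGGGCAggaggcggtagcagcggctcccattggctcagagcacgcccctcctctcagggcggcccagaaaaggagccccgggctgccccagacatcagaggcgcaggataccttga
Acaa1a: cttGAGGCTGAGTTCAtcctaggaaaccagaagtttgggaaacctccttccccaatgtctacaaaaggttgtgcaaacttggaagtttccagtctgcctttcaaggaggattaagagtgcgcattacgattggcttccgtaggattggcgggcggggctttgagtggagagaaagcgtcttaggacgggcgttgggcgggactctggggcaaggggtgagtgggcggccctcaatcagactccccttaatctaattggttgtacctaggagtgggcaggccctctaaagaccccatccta
Acaa1b: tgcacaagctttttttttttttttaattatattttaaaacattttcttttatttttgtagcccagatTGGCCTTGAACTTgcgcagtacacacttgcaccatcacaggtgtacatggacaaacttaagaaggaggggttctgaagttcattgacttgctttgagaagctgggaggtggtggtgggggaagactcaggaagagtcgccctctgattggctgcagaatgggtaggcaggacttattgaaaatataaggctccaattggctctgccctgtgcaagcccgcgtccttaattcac

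The marked stretch matched 8 of the 12 fixed letters in Ehhadh, starting 73 bases before the start site. It matched 7 of 12 in Acaa1a, 247 bases before the start site, and 8 of 12 in Acaa1b, 183 bases before it and on the opposite strand. Of 32851 RefSeq windows of this length 79.8% hold a stretch that matches at least 8 letters, so these matches are ordinary. The single hexamer AGGTCA, which overlaps the longer motif, occurred on neither strand of these 3 windows, against 16.3% of all windows. GGGCGG, the GC box that binds Sp1, occurred in the windows of Ehhadh and Acaa1a and not in that of Acaa1b, against 35.7% of all windows. TATAAA occurred in none of the 3, against 13.6% of all windows. Aligned end to end, the Acaa1a and Acaa1b windows were identical at 167 bases, or 55.7% of the window. Windows were also read for Ech1, Eci2 and Abcd3, and their nearest stretches matched 8 letters each. The Eci2 window and an Abcd3 window also lie wholly within the annotated gene. A match describes letters only, and a missing match says only that these letters are not in this window.

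**Figure D1:**
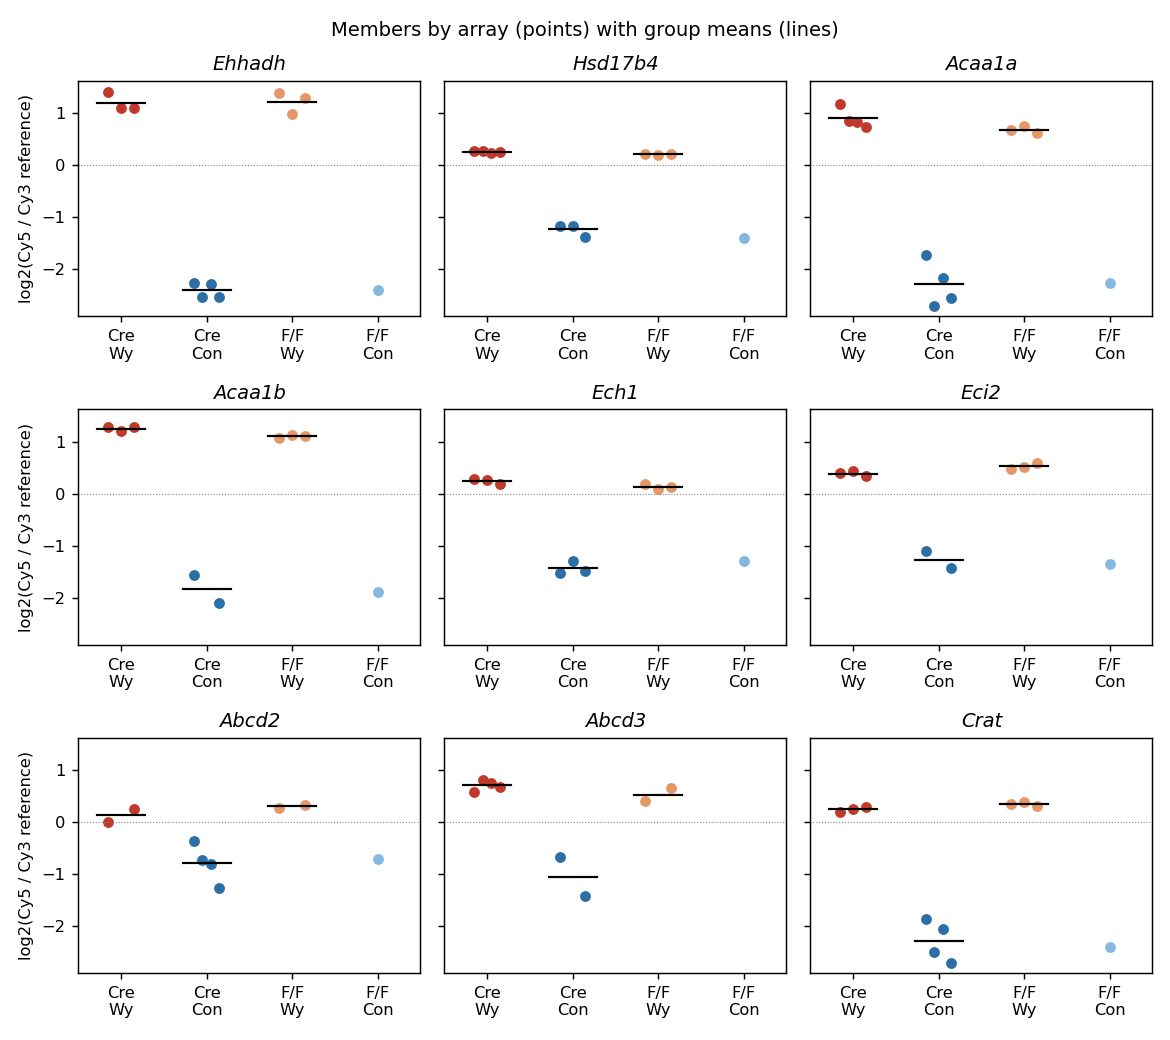
Log2 ratio of sample (Cy5) to reference (Cy3) for the probe that stands for each member, one point per array with a usable spot and a line at the mean of groups with more than 1 value. Cre stands for MycF/F,ERT2-Cre, F/F for MycF/F, Wy for Wy-14643 and Con for control diet. In all 9 panels the Wy-14643 points lie above the control points.

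All 9 members rose on Wy-14643 in MycF/F,ERT2-Cre livers at an adjusted p under 0.05 (limma, Benjamini-Hochberg over all genes), where 8.92% of the 25134 genes tested were called higher and 7.44% lower. The median log2 fold change of the members was 1.75 and the range was 0.93 to 3.60, beside a median of 0.0286 over all genes. In all 9 members every Wy-14643 array with a usable spot lay above every such control array of either genotype. Of all genes 7.81% showed this separation. Only 1 member had a value on all 12 arrays, Abcd3 had none on the MycF/F control array, and missing spots make the separation easier. The members were ranked 10, 20, 22, 33, 86, 97, 99, 134 and 328 by log2 fold change among 14540 named genes. In bulk liver, fewer cells of a type and less RNA per cell cannot be told apart.

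Ehhadh encodes the L-bifunctional enzyme of peroxisomes and had the largest log ratio change of the members, although on the Cy5 signal alone Acaa1a changed more in MycF/F,ERT2-Cre (2.61 against 2.39) and Crat more in MycF/F (2.63 against 2.20). It read 1.41, 1.09 and 1.09 in Wy-14643-fed MycF/F,ERT2-Cre livers, against -2.27, -2.53, -2.28 and -2.54 on control diet. MycF/F arrays gave 1.38, 0.99 and 1.29 on Wy-14643, against -2.39 on the lone control array. Treated livers were thus brighter than the reference and control livers dimmer, with a gap far wider than the spread within any group. The log2 fold change was 3.60 (SE 0.12, adjusted p = 3.62e-08 by limma) in MycF/F,ERT2-Cre and 3.61 (SE 0.19, adjusted p = 4.55e-06) in MycF/F, about 12.1-fold and 12.2-fold.

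Hsd17b4 encodes the D-bifunctional enzyme, which performs the same hydration and dehydrogenation with the opposite stereochemistry and also serves branched chains and bile acid intermediates. It read 0.27, 0.27, 0.24 and 0.25 in Wy-14643-fed MycF/F,ERT2-Cre livers, against -1.17, -1.16 and -1.37 on control diet. MycF/F livers gave 0.22, 0.19 and 0.21 on Wy-14643, against -1.40 on control diet. The treated values lay in a narrow band, with an SD of 0.02 (n = 4) and 0.01 (n = 3). The log2 fold change was 1.49 (SE 0.08, adjusted p = 3.67e-07) in MycF/F,ERT2-Cre livers and 1.61 (SE 0.12, adjusted p = 2.16e-05) in MycF/F livers.

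The response of Ehhadh exceeded that of Hsd17b4 by 2.07 on the log2 scale. The difference of their log2 ratios within an array was 0.84 to 1.13 on 3 Wy-14643 arrays and -1.16 to -1.10 on 3 control arrays of MycF/F,ERT2-Cre livers, without overlap. The exact two-sided permutation test gave p = 0.1, the smallest that 3 arrays against 3 allow (0.3 after adjustment over the 3 pairs of members compared), so the design could not pass the threshold. With outlier spots kept, 4 arrays against 4 gave a difference of 2.20 (exact permutation p = 0.0286, adjusted p = 0.0429). On the Cy5 signal alone the difference was 0.79.

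The thiolases Acaa1a and Acaa1b, which cleave the 3-ketoacyl-CoA at the end of each cycle, rose in both genotypes. Acaa1a read 1.17, 0.85, 0.83 and 0.74 in Wy-14643-fed MycF/F,ERT2-Cre livers, against -1.73, -2.70, -2.16 and -2.56 on control diet. MycF/F arrays gave 0.68, 0.75 and 0.62 on Wy-14643, against -2.27 on control diet. It was the one member with a usable spot on all 12 arrays, and its control arrays spread more widely (SD 0.44, n = 4) than its treated ones (SD 0.19, n = 4). Acaa1a changed by 3.18 on the log2 scale (SE 0.18, adjusted p = 3.04e-07) in MycF/F,ERT2-Cre and 2.95 (SE 0.29, adjusted p = 9.56e-05) in MycF/F.

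The 3 probes of Acaa1a agreed in direction but not in size. Their log2 fold changes in MycF/F,ERT2-Cre livers were 3.18, 2.92 and 1.54, the last with a 95% interval of 1.33 to 1.75. A mean of the 3 probes gave 2.44.

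Acaa1b, the paralogous thiolase, read 1.27, 1.21 and 1.27 in Wy-14643-fed MycF/F,ERT2-Cre livers, against -1.57 and -2.10 on control diet. MycF/F livers gave 1.06, 1.13 and 1.11 on Wy-14643, against -1.89 on control diet. The treated arrays fell within a narrow band in both genotypes. Acaa1b changed by 3.09 on the log2 scale (SE 0.15, adjusted p = 1.4e-06) in MycF/F,ERT2-Cre and 2.99 (SE 0.18, adjusted p = 3.12e-05) in MycF/F.

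The responses of Acaa1b and Acaa1a differed by -0.08 on the log2 scale (exact permutation p = 0.4, 3 arrays against 2, smallest possible p 0.1), and the within-array differences of the Wy-14643 arrays (0.39 to 0.53) overlapped those of the control arrays (0.46 to 0.59). With the mean of the 3 Acaa1a probes the difference was 0.79 in the other direction, and with the deposited log ratio it was 0.01. No order of the 2 thiolases was shown. Their transcripts are similar in sequence, and how far each probe reads the other gene was not tested.

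Ech1 and Eci2 encode isomerases that move double bonds of unsaturated chains into the position the cycle needs. Ech1 read 0.28, 0.26 and 0.18 in Wy-14643-fed MycF/F,ERT2-Cre livers, against -1.53, -1.30 and -1.48 on control diet, and 0.18, 0.08 and 0.12 in Wy-14643-fed MycF/F livers, against -1.29. Its log2 fold change was 1.68 (SE 0.09, adjusted p = 1.35e-06) in MycF/F,ERT2-Cre and 1.41 (SE 0.13, adjusted p = 0.000137) in MycF/F. The diets did not overlap, and the genotypes on Wy-14643 met at 0.18 as printed. Eci2 read 0.39, 0.43 and 0.33 in Wy-14643-fed MycF/F,ERT2-Cre livers, against -1.11 and -1.43 on control diet. MycF/F livers gave 0.47, 0.51 and 0.59 on Wy-14643, against -1.35 on control diet. The log2 fold change of Eci2 was 1.65 (SE 0.12, adjusted p = 1.63e-05) and 1.87 (SE 0.15, adjusted p = 0.000115) in the same order. On Wy-14643 the difference of Eci2, MycF/F,ERT2-Cre over MycF/F, was -0.14 and did not pass (limma, adjusted p = 0.855).

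Abcd3 and Abcd2 are half-transporters of the peroxisomal membrane, which pair up to import acyl-CoA esters, Abcd3 for dicarboxylic and branched chains and Abcd2 for very long chains. Abcd3 read 0.58, 0.81, 0.75 and 0.68 in Wy-14643-fed MycF/F,ERT2-Cre livers, against -0.67 and -1.42 on control diet, and 0.40 and 0.65 in Wy-14643-fed MycF/F livers. Its brightest probe had no usable spot on the MycF/F control array. The log2 fold change in MycF/F,ERT2-Cre livers was 1.75 (SE 0.19, adjusted p = 0.000225), and the other 2 probes of Abcd3 gave 2.00 and 2.18. Those 2 probes also had a MycF/F control value, and in MycF/F livers they gave 1.92 (SE 0.14, adjusted p = 0.000126 over all probes) and 1.99 (SE 0.22, adjusted p = 0.000407).

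Abcd2, in mouse better known from fat and brain than from liver, had the smallest log ratio change, although on the Cy5 signal alone Abcd3 (1.10) and Eci2 (1.22) changed less than Abcd2 (1.36) in MycF/F,ERT2-Cre livers. It read 0.01 and 0.26 in Wy-14643-fed MycF/F,ERT2-Cre livers, against -0.37, -0.72, -0.80 and -1.26 on control diet. In MycF/F livers it read 0.28 and 0.33 on Wy-14643, against -0.71 on control diet. The groups did not overlap, although 2 of 4 treated MycF/F,ERT2-Cre arrays and 1 of 3 treated MycF/F arrays had no usable spot. The log2 fold change was 0.93 (SE 0.21, adjusted p = 0.0137) in MycF/F,ERT2-Cre and 1.01 (SE 0.29) in MycF/F, where it missed the threshold (adjusted p = 0.0803). Without MycF/F,ERT2-Cre replicate 3 on Wy-14643 the first value was 0.80 and no longer passed (adjusted p = 0.106). Without MycF/F,ERT2-Cre control replicate 1 or 4 the second passed (adjusted p = 0.0315 and 0.0215), as it did with outlier spots kept (adjusted p = 0.0331). The second probe of Abcd2 gave 0.22 (adjusted p = 0.328 over all probes) in MycF/F,ERT2-Cre and 0.42 in MycF/F. These values were smaller but in the same direction. In MycF/F,ERT2-Cre the intervals of the probes overlapped (0.47 to 1.39 and -0.08 to 0.52). The second probe read -0.67 in MycF/F,ERT2-Cre replicate 1 on Wy-14643. The other arrays of that group read -0.12 to -0.01, against -0.62 to -0.25 on control diet. Whether the probes differ was not tested.

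The responses of Abcd2 and Abcd3 differed by -1.03 on the log2 scale in MycF/F,ERT2-Cre livers, and the within-array differences did not overlap between 2 arrays and 2 (exact permutation p = 0.333, the smallest possible). With outlier spots kept the difference was -0.78 on 4 arrays against 4 (exact permutation p = 0.0286, adjusted p = 0.0429). On the Cy5 signal alone it was 0.19, with the sign turned.

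Crat, carnitine acetyltransferase, transfers short acyl groups to carnitine and is found in mitochondria as well as peroxisomes. It read 0.19, 0.25 and 0.29 in Wy-14643-fed MycF/F,ERT2-Cre livers, against -1.87, -2.50, -2.05 and -2.70 on control diet. MycF/F arrays gave 0.34, 0.39 and 0.30 on Wy-14643, against -2.39 on control diet. Treated values sat close together while controls spread (SD 0.05, n = 3, and 0.39, n = 4). Crat changed by 2.52 on the log2 scale (SE 0.17, adjusted p = 2.23e-06) in MycF/F,ERT2-Cre and 2.73 (SE 0.25, adjusted p = 0.000102) in MycF/F.

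**Figure D2:**
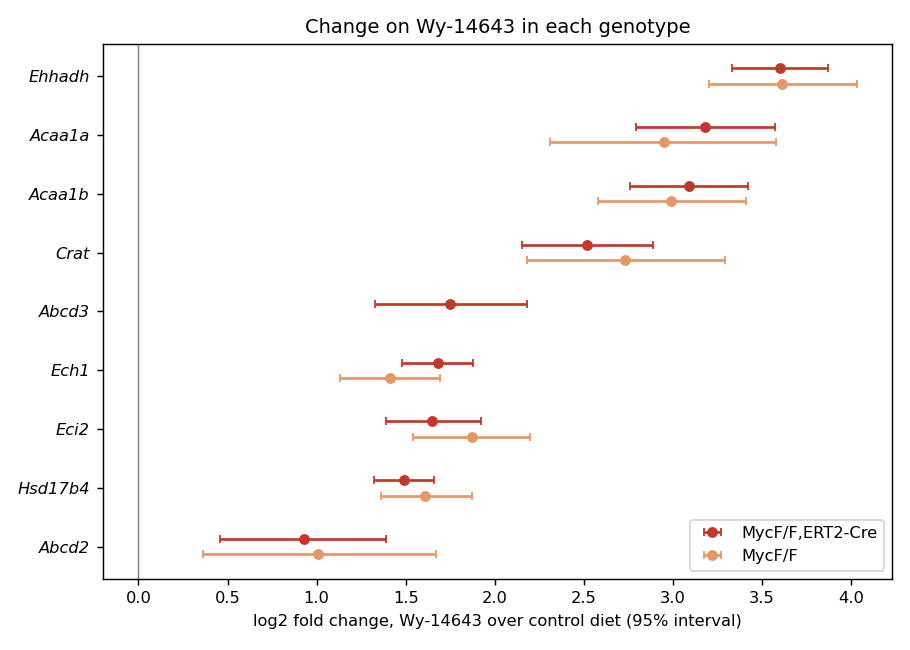
Log2 fold change of each member on Wy-14643 over control diet in MycF/F,ERT2-Cre livers and in MycF/F livers, points with 95% intervals from limma. The 2 genotypes' intervals overlap for the 8 members measured in both, from Ehhadh at 3.60 and 3.61 to Abcd2 at 0.93 and 1.01.

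In MycF/F livers 7 of 8 members tested were called higher and 0 lower, where 3.34% of 24909 genes were called higher and 3.22% lower. Their range was 1.01 to 3.61 and their median 2.30, beside a median of -0.00283 over all genes. Abcd3 is missing from the 2.30, which is therefore over fewer members than the 1.75 in MycF/F,ERT2-Cre livers. The drug comparison in MycF/F sets 3 arrays against 1, and the lone array is assumed to vary like those of the other groups. Of the 8 members with a value on it, 6 lay within the range of the MycF/F,ERT2-Cre control arrays, while Hsd17b4 lay below that range and Ech1 just above it.

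The arrays lay on 3 slides, and each slide held arrays of both diets. Within slide 1, which carried the most outlier spots, the drug effect in MycF/F,ERT2-Cre was above 0 in 4 of 4 members with a value (0.56 to 3.38). Within slide 2 it was above 0 in 7 of 7 (1.44 to 3.69) and within slide 3 in 8 of 8 (1.52 to 3.63). In MycF/F livers slide 2 alone held both diets, and there it was above 0 in 8 of 8 (1.03 to 3.38). Of the 168 spot values of the 14 probes, 26 were lost as outlier spots. With those spots kept, all 9 members had a value on all 12 arrays and every Wy-14643 array still lay above every control array. The share of all genes with this separation, 7.81%, was counted with outlier spots left out and is not given with them kept.

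Comparing the genotypes on the same diet asks whether levels depended on the Myc genotype. Whether the response depended on it is asked by the difference of the drug effects, given last. On Wy-14643, 0 of 9 members passed in limma and 0 had an unadjusted p under 0.05, where 0.0676% of 25150 genes were called and 2131 had such a p. The log2 differences, MycF/F,ERT2-Cre over MycF/F, ran from -0.17 (Abcd2) to 0.21 (Acaa1a), and their 95% intervals together spanned -0.70 to 0.63. On control diet 0 of 8 members passed and 0 had an unadjusted p under 0.05, with differences of -0.15 to 0.17 and intervals within -0.68 to 0.65. None of 24893 genes passed there, and 440 had an unadjusted p under 0.05. The difference of the drug effects between genotypes was tested directly: 0 of 8 members passed, 0 had an unadjusted p under 0.05, and the values ran from -0.22 (Eci2) to 0.27 (Ech1). Over all 24873 genes 0 passed this test and 540 had an unadjusted p under 0.05. The widest 95% intervals of this difference reached down to -0.89 (Abcd2) and up to 0.98 (Acaa1a), and the narrowest member, Hsd17b4, had -0.42 to 0.19. Missing the threshold does not show that the genotypes respond alike.

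**Figure D3:**
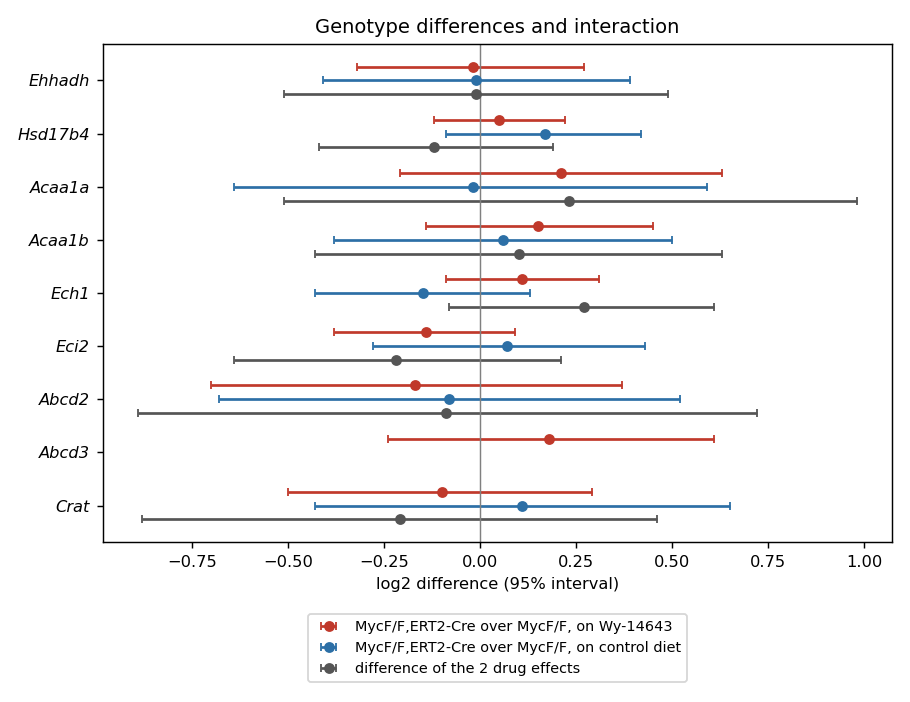
Log2 differences of MycF/F,ERT2-Cre over MycF/F arrays for each diet, and the drug effect in MycF/F,ERT2-Cre minus that in MycF/F, points with 95% intervals. All intervals cross 0; Abcd3 has only the first comparison because its probe has no MycF/F control value.

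Myc itself, the targeted gene, read -0.07 to 0.05 in Wy-14643-fed MycF/F,ERT2-Cre livers (n = 3), against 0.51 and 0.62 in Wy-14643-fed MycF/F livers. On control diet it read 0.01 to 0.72 in MycF/F,ERT2-Cre livers (n = 4), against 0.58 in MycF/F. The difference did not pass on Wy-14643 (-0.57, SE 0.17, adjusted p = 0.281) or on control diet (-0.19, SE 0.21, adjusted p = 1), and whether the Myc probe lies in the deleted part was not tested. Ppara, the receptor gene, read -0.28 to 0.04 and -0.46 to -0.03 in MycF/F,ERT2-Cre livers given Wy-14643 and control diet, a log2 fold change of 0.10 that did not pass (SE 0.10, adjusted p = 0.598).

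The brightness of the reference itself differed between diets for Ehhadh, Acaa1a and Acaa1b. The labels name the same pooled liver reference for all arrays. For Ehhadh the Cy3 signal was 30034 to 69069 scanner units on the 7 Wy-14643 arrays (median 45580), against 99500.5 to 179424 on the 5 control arrays (median 165000). For Acaa1b it was 39987.5 to 62806.5 on Wy-14643 arrays, against 88028.5 to 219184 on control arrays. For Acaa1a it was 43139 to 62460.5 on Wy-14643 arrays, against 65626 to 126898 on control arrays. These 3 members had every Wy-14643 array below every control array in Cy3, which 0.0554% of 25271 genes did (14 genes). On the log2 scale the Cy3 signal of Ehhadh was lower on Wy-14643 arrays by a like amount within each slide: -1.86, -1.89 and -1.77, where the median of all genes was 0.10, -0.08 and -0.24. Hsd17b4 had overlapping Cy3 signals of 18775 to 29344.5 on Wy-14643 arrays and 20432 to 31297 on control arrays.

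**Figure D4:**
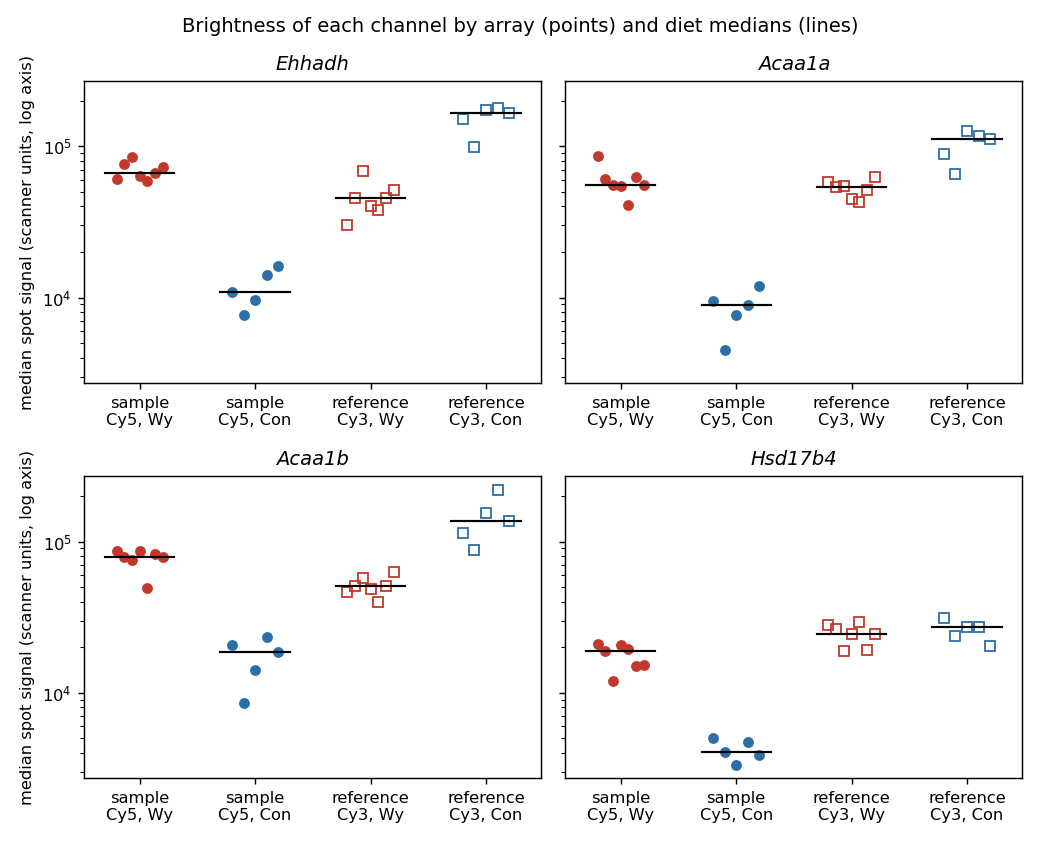
Median spot signal in scanner units (log axis) of the sample channel (Cy5, filled circles) and the reference channel (Cy3, open squares) for 4 members, one point per array, with lines at the medians of the 7 Wy-14643 and the 5 control arrays. Sample signals are higher on Wy-14643 in all 4 panels, and reference signals are lower on Wy-14643 in those of Ehhadh, Acaa1a and Acaa1b, with medians of 45580 and 165000 for Ehhadh.

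The log ratio of these members thus moved through both channels. In the Cy5 signal alone, normalized between arrays, all 9 members were again called higher in MycF/F,ERT2-Cre livers (limma), where 2.49% of genes were. Their log2 fold changes then ran from 1.10 to 2.61 with a median of 1.78. In raw Cy5 brightness every Wy-14643 array lay above every control array for all 9 members, which 3.29% of genes showed. Ehhadh changed by 2.39 in Cy5 alone, 5.23-fold against 12.1-fold by the ratio. Acaa1b changed by 2.03 in place of 3.09, Abcd3 by 1.10 in place of 1.75 and Acaa1a by 2.61 in place of 3.18. In the Cy3 signal alone 0 of 9 members were called in either direction, where 0.00796% of genes were called lower and 0 higher. A value below 0 was read in 7 of 9 members, with Ech1 at -0.02, where the median of all genes was 0. The members' Cy3 changes ran from -1.25 in Ehhadh (limma, unadjusted p = 6.34e-05, adjusted p = 0.24) to 0.51 in Abcd2, with a median of -0.50. Genes called higher in MycF/F,ERT2-Cre livers with a log2 ratio change over 1 were split by brightness. Their median Cy3 change was -0.51 in the brightest class (mean log2 brightness of 14 and over, 32 genes) and between -0.14 and -0.06 in the dimmer classes. Low Cy3 raises the ratio by which these genes were picked, so a Cy3 change below 0 is partly built in. The part of the Cy3 shift in the fold changes was not tested. It bears on the sizes given above, among them those of Ehhadh, Acaa1a, Acaa1b, Abcd3 and Eci2. In MycF/F,ERT2-Cre livers Eci2 changed by 1.22 in Cy5 alone in place of 1.65. The direction of these members was the same in Cy5 alone.

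Other genes listed with peroxisomal beta-oxidation, accessory enzymes and carriers among them, moved in both directions. Of 23 listed, 20 could be tested in MycF/F,ERT2-Cre livers, and 11 rose, 3 fell and 6 did not pass. Over all genes 8.92% were called higher and 7.44% lower. The median log2 fold change of the list was 0.70. Large changes were in Crot (2.13, SE 0.20), the carnitine octanoyltransferase, in Acot4 (2.01, SE 0.28), an acyl-CoA thioesterase, and in Eci3 (1.84, SE 0.12), an isomerase. Crot and Acot4 had a single array in a group, which is assumed to vary like the others. The genes that fell were Pecr, a trans-2-enoyl-CoA reductase (-1.20, SE 0.12), Nudt7, a CoA diphosphatase (-0.52, SE 0.11), and Slc25a17, a membrane carrier of cofactors (-0.29, SE 0.09). Slc25a17 passed narrowly (limma, adjusted p = 0.0429). In MycF/F livers, with the lone control array, their log2 fold changes were -1.16, -1.15 and 0.03 in the same order. Values near 0 that did not pass were 0.09 in Nudt19, -0.18 in Phyh, and -0.24 in Scp2 and in Acox3. In MycF/F livers 11 of 21 rose and 2 fell.

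**Figure D5:**
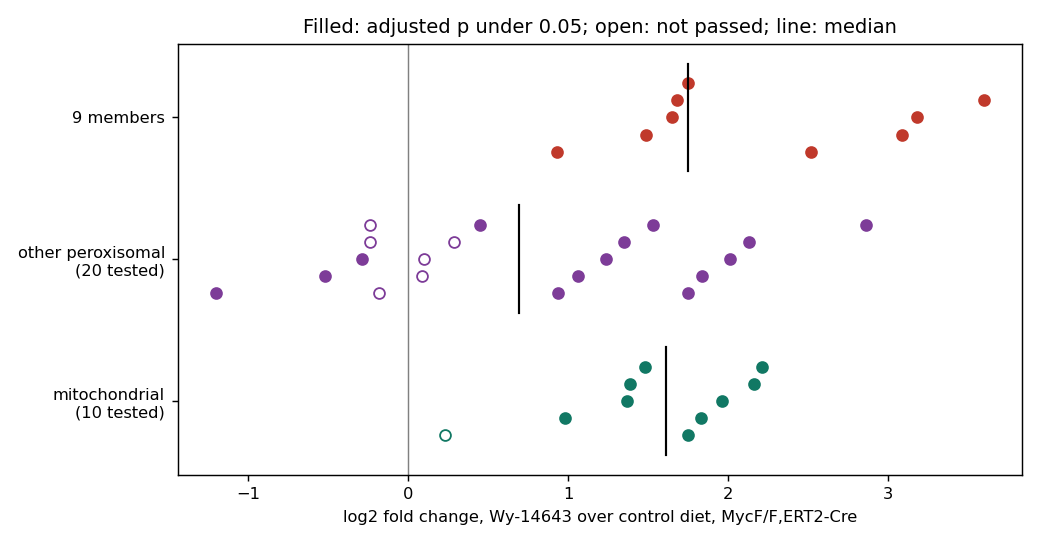
Log2 fold change on Wy-14643 over control diet in MycF/F,ERT2-Cre livers. Rows are the 9 members, other listed peroxisomal genes (20 tested) and mitochondrial beta-oxidation genes (10 tested). Filled points have an adjusted p under 0.05, open points do not, and lines mark medians of 1.75, 0.70 and 1.62.

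The mitochondrial counterparts rose almost throughout, 9 of 10 tested with a median of 1.62, where 8.92% of all genes were called higher. Hadhb and Hadha, the subunits of the mitochondrial trifunctional protein, had log2 fold changes of 1.96 (SE 0.11) and 1.75 (SE 0.08). Eci1, the mitochondrial isomerase related to Eci2, had 1.83 (SE 0.10), close to the 1.65 of Eci2. Acaa2, the mitochondrial thiolase, had 0.98 (SE 0.07), below the 3.18 and 3.09 of the peroxisomal thiolases, a difference that was not tested. Cpt2, which regenerates acyl-CoA inside mitochondria, had 1.48 (SE 0.11), and Echs1 at 0.23 (SE 0.11, adjusted p = 0.201) was the one that did not pass.

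Genes outside these lists followed the same course over the arrays. Of 11640 named genes with a value on all 12 arrays, those nearest to the centred profile of Acaa1a were Hsd17b11, Pex11a, Spon2, Cox6b2 and Mogat1, with root mean square differences of 0.25, 0.30, 0.34, 0.40 and 0.47 on the log2 scale. Those nearest to Ehhadh over the 11 arrays with its value were Hsd17b11 (0.19), Cox6b2 (0.20) and Spon2 (0.23). Pex11a is a peroxisomal membrane protein of organelle proliferation, and Hsd17b11 is a lipid droplet dehydrogenase. The measure is a description over arrays that share a drug contrast.

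Markers of cell types were set beside these results. The mean log2 ratio of 5 hepatocyte markers was -0.33 to 0.34 in Wy-14643-fed MycF/F,ERT2-Cre livers, against 1.06 to 1.37 on control diet, and -0.16 to -0.09 in Wy-14643-fed MycF/F livers, against 1.07. Of these markers 4 of 5 were called lower in MycF/F,ERT2-Cre livers, among them Alb at -1.39 (SE 0.13) and Ttr at -1.28 (SE 0.20). The Kupffer cell mean was -0.38 to -0.24 on Wy-14643, against 0.08 to 0.95 on control diet in MycF/F,ERT2-Cre livers, with 3 of 6 called lower. Markers called lower also included 1 of 6 for endothelium, 3 of 6 for stellate cells, 1 of 5 for cholangiocytes (with 1 of 5 higher) and 2 of 5 for lymphocytes. Over all genes 7.44% were called lower and 8.92% higher, and a list with 1 marker called is too small to be set apart from that. The adipocyte mean, -0.08 to 0.05 on Wy-14643 and -0.04 to 0.08 on control diet in MycF/F,ERT2-Cre livers, had 0 of 4 called. In MycF/F livers the Kupffer cell mean was -0.74 to -0.27 on Wy-14643, against 0.18 on control diet. The adipocyte mean there was 0.03 to 0.26, against -0.06. Each of the lists had no marker below background on all arrays. The part of these shifts in the members' values was not tested.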

How the data were processed

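Whole-liver RNA of 4 groups was read on 12 Agilent mouse arrays of 2 colours, 4 on each of 3 slides, each scanned at its own time. Per the file headers, Agilent Feature Extraction 11.0.1.1 produced the intensity of each spot (median Cy5 and Cy3 signal with local background). The log ratio that the authors deposited, a log10 value of processed red over green signal, served as an alternative. Probe accessions were matched to symbols with a RefSeq gene table (GRCm38.p6): 16792 of 17440 mRNA accessions matched.

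In R 4.3.3 with limma 3.58.1, median signals were background-corrected (normexp, offset 50) and loess-normalized within arrays, outlier spots were left out, and probes well above background in Cy5 on at least 3 arrays were kept. Each gene was its brightest kept probe, which gave 25271 genes or unnamed probes. Median Cy5 over background was 2.64 to 4.82 and outlier spots were 0.904% to 8.35% per array. Each group held 1 to 4 arrays, which limits the precision. No spot was saturated. One fit with a mean per group covered all 12 arrays (lmFit, eBayes, two-sided, Benjamini-Hochberg over all genes, threshold 0.05). The 3 member pairs used exact permutation tests. Arrays of different diets had correlations of 0 to 0.54 over all kept probes. The channels were also fitted apart, Cy3 on its own after the values were seen. Scripts were tested on simulated data.

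All 9 members are named. Of the other listed genes, those named are the 4 with the largest and 4 with the smallest absolute change in MycF/F,ERT2-Cre, with ties and those that fell, 5 mitochondrial paralogues, Myc, Ppara and the genes most alike; some genes this rule names are not reported here. Members and lists were chosen with earlier results of these data known. Alternatives were the deposited log ratio, Cy5 alone, other dim-probe filters, outlier spots kept, slide or replicate as a block, probe averaging, and leaving out slide 1 or each array.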

Additional observations from a re-analysis of the deposited data

Results flagged for a closer look

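Among the 13 groups of 4 usable values that the member probes gave, 2 held a value far from its 3 companions. Chance flags about 1 in 20 such groups. The lesser-changed Acaa1a probe read 0.78 in MycF/F,ERT2-Cre replicate 1 on Wy-14643, while the other 3 arrays of that group read 0.36 to 0.42. The second probe of Abcd2 read -0.67 on the same array, while the others read -0.12 to -0.01. Both values belong to the same array of slide 1, 1 above and 1 below its group. Neither probe stands for its gene in the comparisons of the report.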

How the results depend on the processing

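Counts of members called kept their direction under the alternatives run: 8 to 9 for Wy-14643 in MycF/F,ERT2-Cre over 21 settings, 6 to 9 for Wy-14643 in MycF/F over 20, and 0 for both genotype comparisons and the interaction. Leaving out 1 array at a time gave 8 to 9 and 7 to 8 members called for the drug and 0 otherwise, and could not be run without the MycF/F control array in comparisons that use it. The Ehhadh minus Hsd17b4 response was 2.20 with outlier spots kept, where it passed, and 1.97 to 2.12 leaving out 1 array. Acaa1b minus Acaa1a turned to 0.01 with the deposited log ratio and 0.79 with the mean of probes, and was -0.15 to -0.01 leaving out 1 array. Abcd2 minus Abcd3 turned to 0.19 on Cy5 alone, was -0.78 and passed with outlier spots kept, and was -1.23 to -0.83 leaving out 1 array. The cause was not tested. Without slide 1 that last pair had too few values.

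Hsd17b4 in MycF/F no longer passed on Cy5 alone (2.07, adjusted p = 0.0858). Abcd2 in MycF/F also passed without slide 1 (adjusted p = 0.0336). Uncalled values changed sign in 11 of 208 settings for genotype on Wy-14643, 15 of 168 on control diet and 15 of 160 for the interaction, and in 0 for the drug. Over all genes 1299 were called for Wy-14643 in MycF/F,ERT2-Cre on Cy5 alone, against 4112, and in MycF/F 258 on Cy5 alone, 1054 with the deposited log ratio and 2825 without slide 1, against 1635. Genotype on Wy-14643 ranged from 0 to 107, the highest without slide 1, against 17.

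Whether replicate numbers pair the samples could not be told from the values. Deviations of same-numbered samples correlated at -0.07 to 0.41, and 2 of 8 MycF/F,ERT2-Cre samples matched best with their own number. The pairs of replicate 1 (0.32 to 0.41) shared slide 1, so slide and number cannot be told apart there. With the replicate block 9 and 8 members were called for the drug, 8 of 8 in MycF/F because Abcd2 passed (adjusted p = 0.0466), and 4321 genes in MycF/F,ERT2-Cre. The paired differences of the 3 pairs were 1.99, -0.07 and -0.87.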

Other observations

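Reference Cy3 brightness lay below every control array on every Wy-14643 array for 14 of 25271 genes, named here after their values were seen. Besides Ehhadh, Acaa1a and Acaa1b they were Acot1, Chchd10, Cyp4a10, Cyp4a14, Cyp4a31, Dbi, Fabp1 and Hsd17b11, and 3 probes without a symbol. Cyp4a10, Cyp4a14 and Cyp4a31 are fatty acid omega-hydroxylases of the endoplasmic reticulum that supply dicarboxylic acids, Fabp1 and Dbi bind fatty acids and acyl-CoA esters, and Acot1 is a cytosolic thioesterase. Low Cy3 raises the log ratio that it divides, so the ratios of genes picked this way are a description. In MycF/F,ERT2-Cre livers these 8 had log2 ratio changes on Wy-14643 of 1.42 in Dbi to 4.65 in Cyp4a14, and the 3 unnamed probes had 0.55 (adjusted p = 0.038 by limma), 0.15 (adjusted p = 0.218) and -0.08 (adjusted p = 0.525). In Cyp4a31 the Cy3 signal was 21670 to 44400 scanner units on Wy-14643 arrays, against 146200 to 235100 on control arrays. In Fabp1 it was 25330 to 78260 on Wy-14643 arrays, against 89570 to 201500 on control arrays.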
